A study of Mus musculus with 8 samples.

Results

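Trim28, Setdb1, Daxx, Morc3, Ehmt1, Ehmt2, Suv39h2, Cbx1, Cbx3 and Cbx5 encode factors that build heterochromatin and keep retroelements silent. These 10 genes were taken by symbol from the 21774 protein-coding genes of chromosomes 1 to 19, X and Y in the RefSeq table of GRCm38.p6, and all 10 were found. The data were ATAC-seq peaks, stretches of DNA where the Tn5 transposase inserts sequencing adapters most often, and so a map of accessible chromatin. The cells were RHKI(E14Tg2a), a mouse embryonic stem cell line that carries an HA-Rnaseh1 knock-in, in 8 samples. All were grown in NDiff 227 with LIF, serum and the inhibitors CHIR-99021 and PD0325901, and 4 controls stand beside 4 Dox samples that received 500 ng/ml doxycycline for 48 h to induce Rnaseh1. Controls carry the knock-in too, and nothing in the labels says whether the cells are 1 clone or the replicates separate cultures. The 76996 peaks formed a single list of positions with no height, count, group or sample. Dox was therefore not compared with control. Replicate error and the depth behind the peaks are unknown for every count given here.

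Silencing of this kind rests on methylation of lysine 9 of histone H3. KRAB zinc finger proteins bind retroelement DNA and recruit TRIM28 (KAP1), which brings the methyltransferase SETDB1. DAXX works with ATRX to deposit the histone variant H3.3, and MORC3 is a nuclear body ATPase that also restrains endogenous retroviruses. EHMT1 (GLP) and EHMT2 (G9a) form a heteromeric methyltransferase for euchromatic targets, SUV39H2 methylates pericentromeric repeats, and the HP1 proteins encoded by Cbx5 (alpha), Cbx1 (beta) and Cbx3 (gamma) bind the methylated lysine. In embryonic stem cells loss of several of these factors is known to reactivate endogenous retroviruses.

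All 10 genes had a peak at or near the start. Each had at least 1 peak within 1 kb of the outer gene bound on its start side, and 17 peaks lay there in all. A peak within 1 kb of either end was listed for 61.7% of all protein-coding genes, so such a peak was common in these cells. All 10 also had a peak that overlapped the 300 bp window around a transcript start listed by RefSeq (250 bases before it and 50 after), against 53.9% of the 17492 protein-coding genes with such a window. The 10 genes have 15 listed starts, of which 13 had a peak in that window. No test was made, because the genes were chosen with earlier results of these data known.

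The DNA under these start peaks is shown for the 8 genes where the RefSeq promoter table of GRCm38.p6 gave at least 30 bases that lie under a peak and outside every protein-coding gene bound. The stretches are chr3:95357211-95357332 (Setdb1, minus strand), chr17:33909195-33909272 (Daxx, plus), chr16:93832034-93832120 (Morc3, plus) and chr2:24919662-24919765 (Ehmt1, minus). The others are chr17:34898228-34898341 (Ehmt2, plus), chr2:3474987-3475132 (Suv39h2, minus), chr6:51470049-51470144 (Cbx3, plus) and chr15:103239905-103239942 (Cbx5, minus). All read 5′ to 3′ on the strand of the named gene, and capitals mark matches, on either strand, to the short motifs described after them.
Setdb1: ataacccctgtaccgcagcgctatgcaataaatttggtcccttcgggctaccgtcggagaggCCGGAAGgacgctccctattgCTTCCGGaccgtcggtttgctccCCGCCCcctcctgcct
Daxx: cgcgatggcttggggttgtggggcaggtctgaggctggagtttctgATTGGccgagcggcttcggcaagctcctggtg
Morc3: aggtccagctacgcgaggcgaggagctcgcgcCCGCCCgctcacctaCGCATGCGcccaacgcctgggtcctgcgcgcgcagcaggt
Ehmt1: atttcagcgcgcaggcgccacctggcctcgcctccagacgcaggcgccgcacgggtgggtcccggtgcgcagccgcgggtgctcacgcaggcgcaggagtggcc
Ehmt2: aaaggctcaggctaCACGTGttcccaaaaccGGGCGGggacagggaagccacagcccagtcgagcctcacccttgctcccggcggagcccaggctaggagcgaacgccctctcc
Suv39h2: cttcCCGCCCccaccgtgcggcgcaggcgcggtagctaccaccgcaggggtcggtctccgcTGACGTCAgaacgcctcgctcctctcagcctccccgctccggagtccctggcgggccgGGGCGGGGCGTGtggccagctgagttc
Cbx3: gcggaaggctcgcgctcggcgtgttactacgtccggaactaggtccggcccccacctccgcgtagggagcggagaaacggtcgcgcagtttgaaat
Cbx5: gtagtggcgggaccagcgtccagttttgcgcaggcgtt

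These stretches differ in length and in what they hold. Only those of Setdb1, Ehmt1 and Ehmt2 cover a whole peak, so motifs elsewhere under the other peaks would not show. Setdb1 has 2 ETS motifs (CCGGAAG) and 1 GC box (GGGCGG, bound by SP factors), and Morc3 has 1 GC box and 1 NRF1 motif (CGCATGCG). Ehmt2 has a GC box and an E-box (CACGTG), while the stretch of its partner Ehmt1 holds none of the 9 motifs. Suv39h2 has 2 GC boxes, 1 of them overlapping a KLF motif (CACGCCC). It also has 1 stretch, TGACGTCA, that matches the CRE motif (TGACGTC) on both strands. Daxx has a CCAAT box. The Cbx3 and Cbx5 stretches, which lie between each gene and its head-to-head neighbour, hold none of the motifs. The Cbx3 stretch was read from the promoter window of that neighbour, Hnrnpa2b1, and lies outside the 300 bp windows of both listed Cbx3 starts. CpG dinucleotides were present in all 8, from 4 in the 38 bases at Cbx5 to 18 in the 146 bases at Suv39h2. Capitals are matches of letters and not measured binding.

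Over the whole 300 bp windows, a GC box was present for all 10 genes, in 14 of the 15 listed starts. It was present in 46.2% of the 21263 listed starts of protein-coding genes and in 70.2% of the 10672 starts whose window a peak overlapped. For the next motifs the shares of all listed starts and of those with a peak stand in brackets. These shares are per start, and some of the 10 genes have several starts. The ETS motif was present for Setdb1 and Daxx (11.6% and 19.5%). The NRF1 motif was present for Morc3 (2.52% and 4.33%) and the CRE motif for Suv39h2 (3.84% and 6.09%). The YY1 motif AAGATGGC was found for Suv39h2 (3.05% and 4.78%) and the E-box for Ehmt2 and Cbx5 (7.84% and 10.7%). The KLF motif was found for Suv39h2 and Cbx3 (10.9% and 17.1%). The CCAAT box was found for Setdb1, Daxx, Morc3 and Cbx5 (38.2% and 40.6%). The TATA box TATAAA was in 0 of the 15 windows and in 12.6% of all listed starts, or 5.43% of those with a peak.

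The windows were rich in CpG. The ratio of observed to expected CpG had a median of 0.882 over the 15 starts, against 0.567 over all listed starts and 0.783 over those with a peak. The highest was 1.09, at the outer start of Cbx5, and the lowest 0.358, at its internal start. GC content ran from 52.7% at Morc3 and Cbx1 to 82.7% at the inner start of Ehmt2, with a median of 69.3% against 56.3% over all starts and 62% over those with a peak. Morc3 and Cbx1 thus had GC contents below the median of all starts but CpG ratios of 0.997 and 1.06. Windows of 1 gene can overlap, as the 3 of Daxx do, so the 15 starts are not independent.

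**Figure D1:**
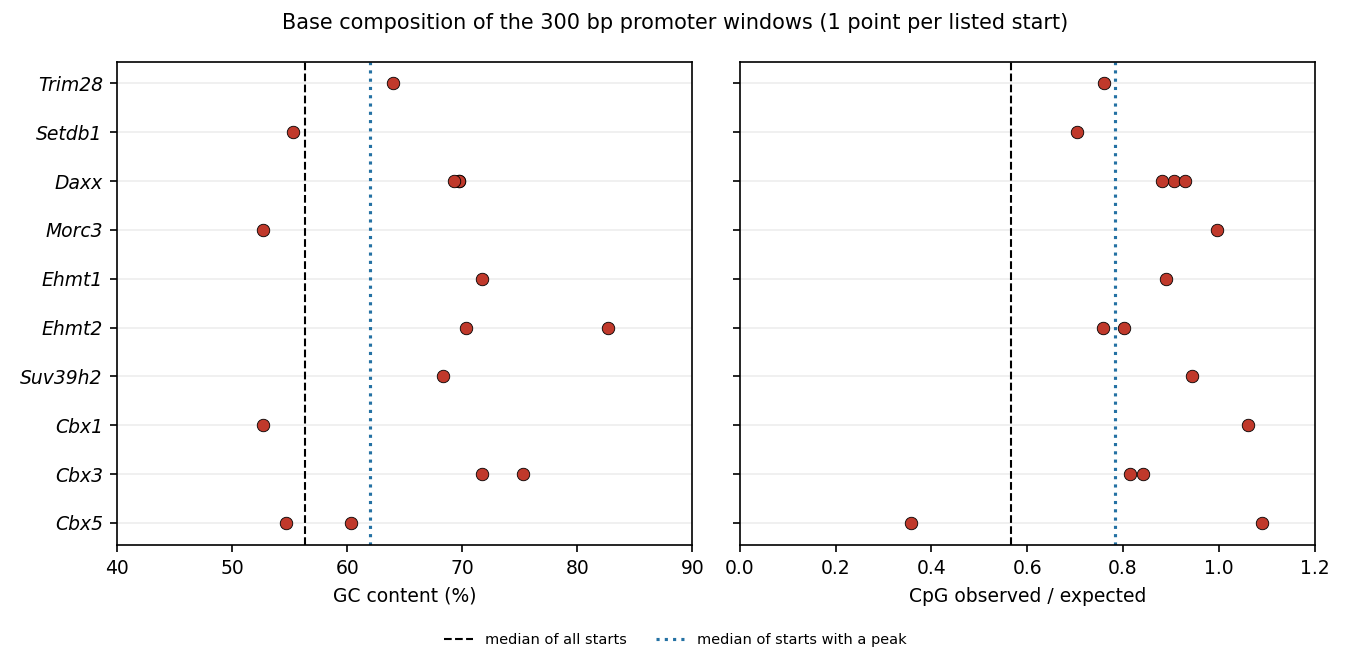
GC content (left, %) and observed over expected CpG (right, ratio) of the 300 bp promoter windows, 1 point per listed transcript start, with dashed lines at the medians of all starts and dotted lines at the medians of starts with a peak. All starts but the internal one of Cbx5, at 0.358, lie above the all-start CpG median of 0.567.

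Trim28 and Setdb1, the corepressor and its methyltransferase, had 3 and 1 peaks within 1 kb of the start, and 1 each within 500 bp. Trim28 (gene ID 21849, chromosome 7, 13024152 to 13031032, plus strand) had its peaks on both sides of the start. The peak at 13024106 to 13024274 (169 bp) covered the listed start, and peaks of 155 and 101 bp were centred at -825 and 955 bp relative to it. All 3 also lay within 1 kb of an end of Gm31649, a predicted gene on the opposite strand that overlaps the first 438 bp of Trim28, so the peaks cannot be assigned to 1 of the pair. Chmp2a, on the opposite strand, lies 973 bp beyond the far end of Trim28 and shared no end peak with it. Setdb1 (gene ID 84505, chromosome 3, 95323525 to 95357202, minus strand) had 1 start peak of 122 bp, at 95357211 to 95357332, whose edge lay 9 bp upstream of the start. It had 2 more peaks inside the gene, of 202 and 113 bp, whose centres lay 18772 and 18319 bp into it. The far end of Setdb1, which overlaps Cers2 by 75 bp, had none.

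At Daxx and Morc3 the start peaks sat differently against the start. Daxx (gene ID 13163, chromosome 17, 33909404 to 33915590, plus strand) had a wide peak of 406 bp at 33908867 to 33909272, wider than 97.0% of all peaks by mid-rank, which ended 132 bp before the gene bound and 173 bp before the nearest of its 3 listed starts. It overlapped the lncRNA gene BC051226. Its far end had a peak of 127 bp, at 33915864 to 33915990, which also lay within 1 kb of an end of the neighbouring gene Zbtb22, a zinc finger gene read in the same direction. Morc3 (gene ID 338467, chromosome 16, 93832121 to 93876077, plus strand) had 1 start peak of 145 bp, at 93832034 to 93832178, that spanned the start, with its NRF1 motif upstream of the start. Inside Morc3 there was 1 peak of 107 bp, centred 17219 bp from the start.

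The paralogs Ehmt1 and Ehmt2, which differ in length, each had 1 peak at the ends and 3 inside. Ehmt1 (gene ID 77683, chromosome 2, 24790769 to 24919643, minus strand, 129 kb) had 1 start peak of 104 bp, at 24919662 to 24919765. Ehmt2 (gene ID 110147, chromosome 17, 34898463 to 34914073, plus strand, 15.6 kb) had 1 start peak of 114 bp, at 34898228 to 34898341. Both peaks lay wholly upstream of the gene, 53 bp from the nearest listed start at Ehmt1 and 133 bp at Ehmt2. Each gene had 3 peaks inside, or 0.233 per 10 kb of Ehmt1 and 1.92 per 10 kb of Ehmt2. The inside peaks of Ehmt2 were 217, 128 and 359 bp wide and those of Ehmt1 118, 154 and 148 bp. Neither gene had a peak within 1 kb of its far end. Slc44a4, on the same strand as Ehmt2, begins 150 bp beyond the far end of Ehmt2. With a 5 kb window in place of 1 kb, Ehmt1 still had 1 peak at its ends and 3 inside, while Ehmt2 had 6 and 0.

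Suv39h2 (gene ID 64707, chromosome 2, 3455815 to 3474986, minus strand) had 2 start peaks, of 199 bp over the listed start (3474934 to 3475132) and of 215 bp centred 505 bp downstream. It overlaps the DNA repair gene Dclre1c, on the opposite strand, by 18397 bp, and both start peaks also lay within 1 kb of the end of Dclre1c at 3474211. Another peak, of 131 bp, lay at the far end of Suv39h2.

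The 3 HP1 genes ran from 1 narrow peak to a cluster at the start. Cbx1 (gene ID 12412, chromosome 11, 96788680 to 96808982, plus strand) had the narrowest start peak of the 10 genes, 93 bp at 96789094 to 96789186. That peak covered the listed start, which lies 455 bp inside the outer gene bound, and 2 inside peaks followed 1093 and 1748 bp downstream. Cbx3 (gene ID 12417, chromosome 6, 51470154 to 51483704, plus strand) had the widest, 697 bp at 51469763 to 51470459, and a second of 141 bp centred 283 bp upstream of its inner listed start. The wide peak spanned the whole 105 bp gap between Cbx3 and Hnrnpa2b1, an RNA-binding protein gene on the opposite strand. Cbx5 (gene ID 12419, chromosome 15, 103191546 to 103239904, minus strand) had 4 start peaks, of 102, 162, 155 and 106 bp. All 4 also lay within 1 kb of an end of Hnrnpa1, another RNA-binding protein gene, which begins 38 bp beyond Cbx5 on the opposite strand. The 162 bp peak, at 103239875 to 103240036, spanned that gap. The 155 and 106 bp peaks lay outside Cbx5 and wholly within Hnrnpa1, so the 4 peaks cannot be assigned to 1 of the pair.

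Cbx5 also had an accessible internal start. RefSeq lists a start at 103215352, which lies 24552 bp inside the gene, and a peak of 113 bp at 103215318 to 103215430 covered it. A second peak, of 92 bp, was centred 300 bp downstream of that start. These were 2 of the 3 peaks inside Cbx5. The 300 bp window of the internal start, which the 113 bp peak overlapped and the 92 bp peak did not, had the lowest CpG ratio of the 15.

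**Figure D2:**
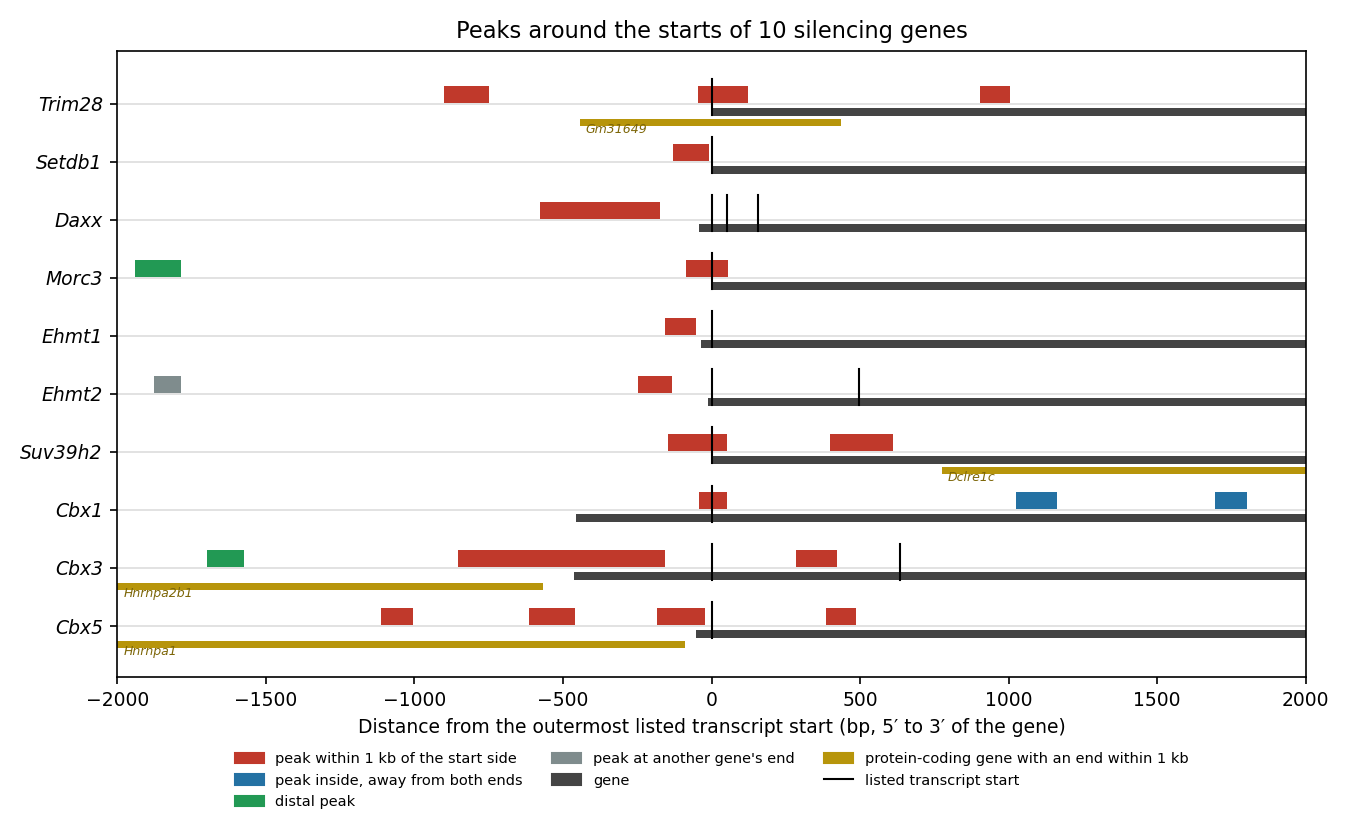
Peaks (coloured blocks) within 2 kb of the outermost listed transcript start of each gene, in bp along the gene's own direction, with the gene as a dark bar, protein-coding genes with an end within 1 kb as yellow bars and listed starts as black lines. Starts of Trim28, Morc3, Suv39h2 and Cbx1 lie inside a peak, while the peaks of Setdb1, Daxx, Ehmt1 and Ehmt2 lie upstream of the start.

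Among the start peaks, 3 were over 200 bp wide (Daxx, Suv39h2 and Cbx3), and their median width was 145 bp, against 134 bp for all 17286 peaks within 1 kb of a protein-coding gene end. Of those 17286 peaks 15.1% were over 200 bp wide. A listed start lay inside a peak for 5 of the 10 genes (Trim28, Morc3, Suv39h2, Cbx1 and, at its internal start, Cbx5), against 34.9% of the 17492 genes with a listed start. In all, 6 of the 10 genes had 2 or more peaks within 1 kb of their ends, where 24.0% of all protein-coding genes did. Within 500 bp 3 of the 10 did (Daxx, Suv39h2 and Cbx5), against 13.6%. An end peak shared with another protein-coding gene's end was found for 5 of 10 (Trim28, Daxx, Suv39h2, Cbx3 and Cbx5), against 16.3%. Ends of lncRNA genes were not counted here, and the start peaks of Daxx and Morc3 overlapped the lncRNA genes BC051226 and Gm30881. Trim28, Cbx3 and Cbx5 have their outer start bound within 1 kb of that of a gene on the opposite strand, an arrangement of 10.3% of the 17492 genes with a listed strand. At the far ends, Suv39h2, Cbx1 and Cbx5 had a peak among the 8 genes of at least 10 kb, against 12.4% of all genes of that length with a listed strand. Within 500 bp of the far end 1 of these 8 had a peak (Cbx5), against 6.52%.

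Peaks inside the gene and away from both ends were found in 6 of the 10 genes, 14 peaks in all, where 45.5% of protein-coding genes had one. Ehmt1, Ehmt2 and Cbx5 had 3 each, Setdb1 and Cbx1 2 each and Morc3 1. Trim28, Daxx, Suv39h2 and Cbx3 had 0. Gene length moved with this count. Of all genes of at least 10 kb 64.2% had an inside peak, and of shorter ones 12.3%, while 6 of the 8 long genes here had one and neither Trim28 nor Daxx did. Exons are not in the tables used here, so whether the inside peaks are exonic or intronic was not determined.

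The surroundings held most of the peaks. Outside the genes but within 50 kb lay 135 peaks, and the median was 14 per gene, against 5 over all protein-coding genes (quartiles 2 and 9). Morc3 had 19, Cbx5 18, Daxx 17, Trim28 16, and Ehmt2, Cbx1 and Cbx3 14 each. Setdb1 had 11, Ehmt1 7 and Suv39h2 5. By mid-rank among all protein-coding genes Morc3 stood at percentile 98.7, Cbx5 at 98.1 and Suv39h2 at 50.8. Upstream of the genes lay 55 of these peaks and downstream 80.

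Genes with as many neighbours as these 10 had a higher median of outside peaks than all genes. The 10 genes had 3 to 10 protein-coding neighbours within 50 kb, with a median of 4 against 3 over all genes. Over the 10762 genes with 3 to 10 neighbours the median was 8 outside peaks, and over the 7058 of these with a peak at an end it was 9 with an upper quartile of 12. Of the 10 genes, 7 lay at or above that quartile. Neighbours and outside peaks numbered 10 and 17 at Daxx, 8 and 16 at Trim28 and 8 and 14 at Ehmt2. They numbered 6 and 11 at Setdb1, 4 and 18 at Cbx5 and 4 and 14 at Cbx1. Ehmt1 had 4 and 7, Suv39h2 4 and 5, Morc3 3 and 19 and Cbx3 3 and 14. The part of gene density in the counts was not tested.

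**Figure D3:**
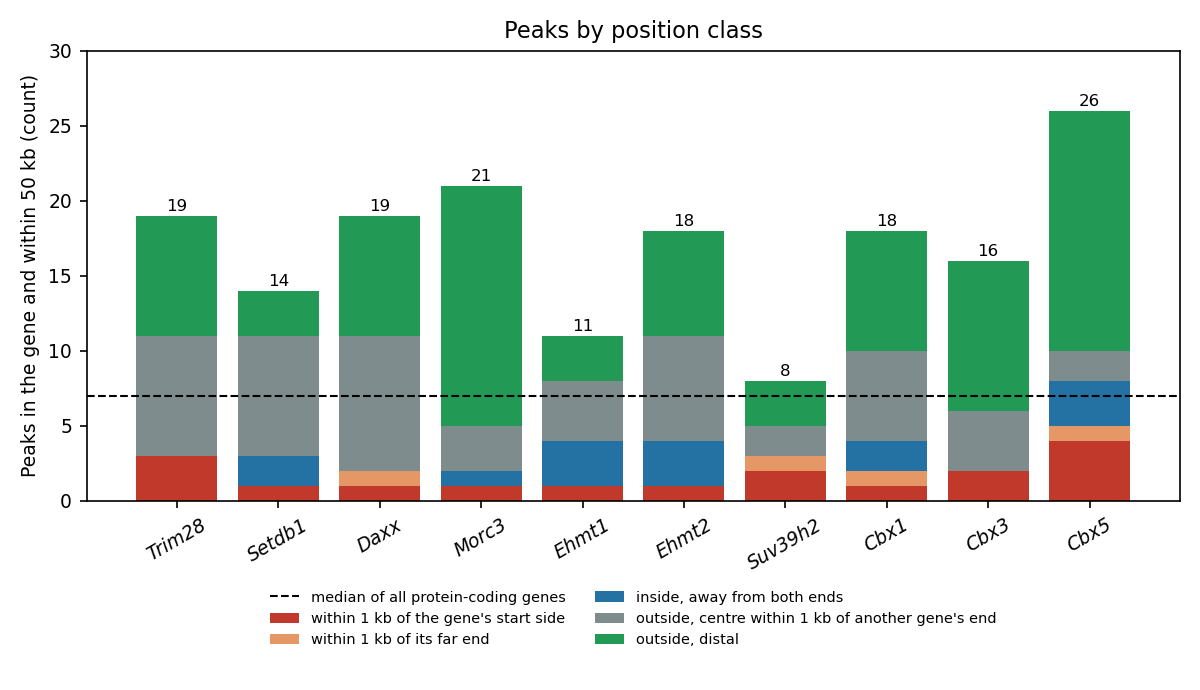
Number of peaks in each gene and within 50 kb of it, stacked by position class, with a dashed line at 7, the median of all protein-coding genes. Counts run from 8 at Suv39h2 to 26 at Cbx5, all above the line.

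Of the 135 outside peaks, 82 were distal, meaning that no protein-coding gene ended within 1 kb of the peak's centre, and 53 were centred at the ends of neighbours. The balance between them differed from gene to gene. Morc3 and Cbx5 had 16 distal peaks each (percentile 99.5 of all protein-coding genes by mid-rank), Cbx3 10, Trim28, Daxx and Cbx1 8 each and Ehmt2 7. Setdb1, Ehmt1 and Suv39h2 had 3 each, the median of all genes. The median was 4 over genes with 3 to 10 neighbours and 5 over those that also had an end peak, so these 3 genes lay below both. At Setdb1 8 of the 11 outside peaks lay at ends of neighbours, and at Daxx, with 10 protein-coding neighbours, 9 of 17. Of the 82 distal peaks, 40 overlapped other protein-coding genes, 10 overlapped only other annotated genes and 32 lay outside annotated genes.

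Of the 16 distal peaks of Cbx5, 13 lay past its far end. In the stretch from 103171453 to 103184115 (12.7 kb) 8 peaks lay outside every annotated gene, between Cbx5 and the repair gene Smug1. At Cbx3 6 such peaks were spread over 27.0 kb downstream, from 51489834 to 51516875. At Morc3 11 of the 19 outside peaks lay upstream, and 7 of them fell within the lncRNA gene Gm30881 (93807973 to 93833092), which runs over the Morc3 start. Morc3 also neighbours Chaf1b, which encodes a subunit of the histone chaperone CAF-1, another silencing factor. The peak at the start of Chaf1b (93883783 to 93883928) lay 7706 bp beyond Morc3.

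**Figure D4:**
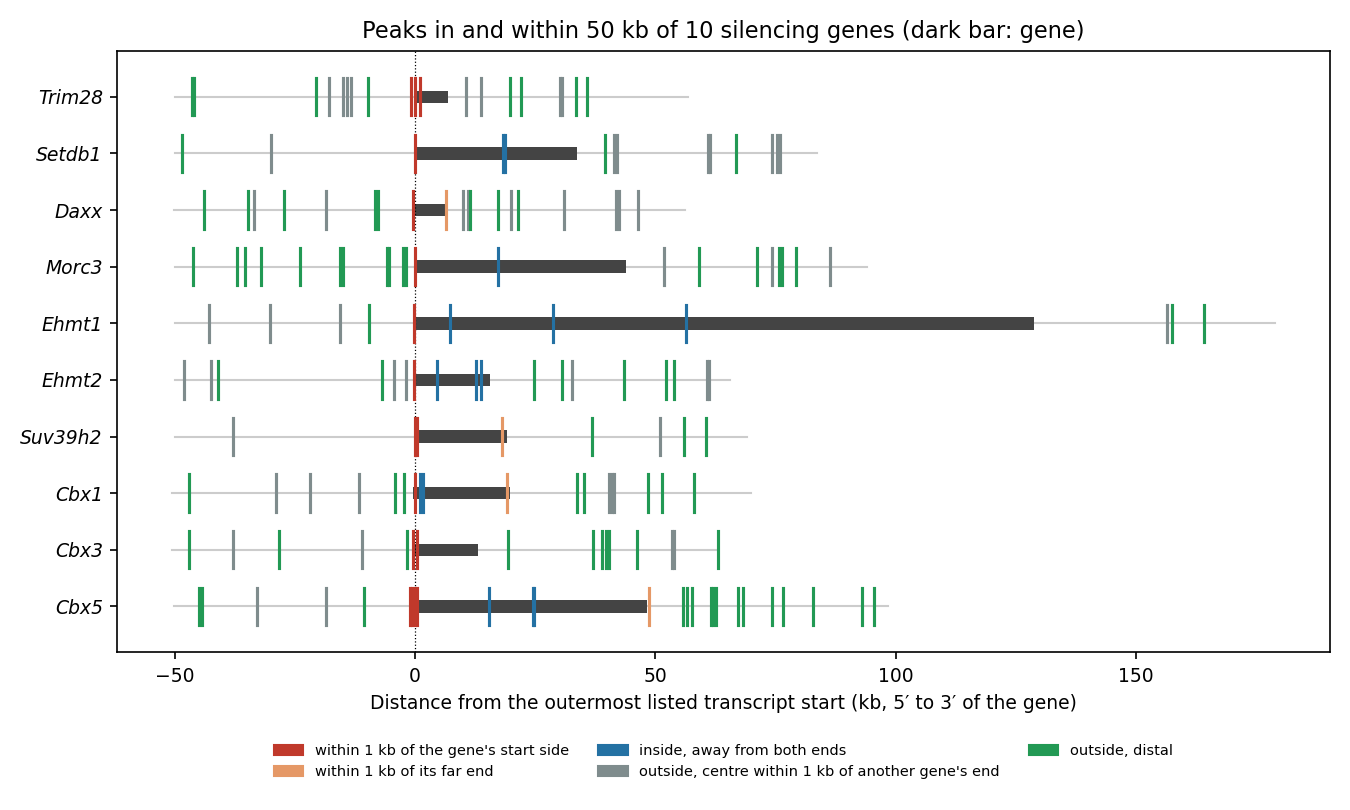
Peaks (vertical ticks at peak centres, coloured by class) in each gene (dark bar) and 50 kb to either side (grey line), in kb from the outermost listed start along the gene's own direction. Distal ticks gather upstream of Morc3 (11 outside peaks upstream) and downstream of Cbx5 (13 outside peaks downstream), while Suv39h2 has 5 outside peaks in all.

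A wider list held 36 genes with roles around silencing, 6 of them listed for lysine 9 demethylation, the removal of the mark. Of the 36 genes 30 had a peak at an end (83.3%), against the 61.7% of all protein-coding genes. Among corepressor partners 7 of 8 had one, including Zfp57, a KRAB zinc finger gene that guards imprints, and Zfp809, whose product recognises retroviral DNA. Among lysine methylation genes 5 of 6 had one, including Suv39h1, the X-linked paralog of Suv39h2, with 2 end peaks, and Setdb2 with 1. Kmt5c, a methyltransferase gene for lysine 20 of histone H4, had its nearest peak 1193 bp from an end. Of the HUSH complex genes Mphosph8 and Pphln1 had end peaks and Tasor had none, with its nearest peak 4982 bp away, so 3 of 4 had one.

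Counts for the other roles were as follows. Of 5 genes for H3.3, its deposition and remodelling 4 had an end peak, with 1 at Atrx and 3 at Hira. H3f3b, an H3.3 gene, had its nearest peak 1314 bp from an end. Both CAF-1 genes had end peaks, 1 at Chaf1a and 2 at Chaf1b. Of the HP1 partners and other silencing genes 4 of 5 had one, including Adnp and Lbr, and Pogz had its nearest peak 1256 bp from an end. Of the 6 genes listed for lysine 9 demethylation 5 had end peaks, with 2 each at Kdm1a and Kdm3a. The wider list had a median of 6.5 outside and 4 distal peaks per gene, compared with 14 and 8 for the 10 genes. Absence from the list does not show closed chromatin at a gene, because the threshold used to make it is unknown.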

How the data were processed

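ATAC-seq of 4 control and 4 Dox samples was grouped by the sample titles. The authors deposited 1 list of 76996 peaks in 3 columns (chromosome, start counted from 0, end) with no header and no values per sample. The build GRCm38 and the tools HOMER 4.11, deepTools 3.5.1, Bowtie2 2.5.0, SAMtools 1.16.1, Trimmomatic 0.39 and Picard 2.10.9 are named per the submitters' processing notes. What each did, the peak caller, its threshold and any pooling were not given in the sources used here, and libraries were size-selected to 150 to 500 bp per the labels' protocols. Dox against control needs values per sample and was not run, and depth and precision per sample are unknown. Paralogs were not compared by protein sequence.

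Gene bounds came from RefSeq GRCm38.p6, with scaffold and patch genes left out (21774 of 21900 kept). Strands, starts and sequences came from its promoter table, which matched all 10 genes. Positions are 1-based. A peak counted at an end with 1 bp or more within 1 kb of the outer bound, otherwise as inside, otherwise as outside within 50 kb. Percentiles are mid-ranks over all protein-coding genes (for widths, over all peaks). Motifs were searched as exact letters on both strands.

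The genes, the wider list, the motifs and all rules were chosen with earlier results of these data known. Named genes are the 10, the protein-coding genes with an end within 1 kb or a shared end peak, and from the wider list, in the written order, the first 2 with an end peak in each role and the first 5 of all those without one, 1 of which is not reported here. Smug1, Gm30881 and BC051226, which describe positions, were chosen after their values were seen. Counting was tested on simulated data. Alternatives were windows of 500 bp and 5 kb, peak centres, peaks wider than the median, reaches of 20 and 100 kb, ends of all annotated genes and, added after seeing the data, listed starts and further end counts. Python 3.11.15, NumPy 2.4.6, pandas 2.3.3 and matplotlib 3.10.9 were used.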

Additional observations from a re-analysis of the deposited data

How the results depend on the processing

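All 10 genes kept a peak at an end with windows of 500 bp and 5 kb and with peak centres. Of all protein-coding genes 56.4%, 73.8% and 60.9% did. With listed starts in place of outer bounds (chosen after seeing the data), all 10 had a peak within 1 kb of a start. Of the 17492 protein-coding genes with a listed start 62.1% did. With peaks wider than the median 6 of 10 had a peak at an end, against 41.5% of all protein-coding genes. Setdb1, Ehmt1, Ehmt2 and Cbx1, with start peaks of 93 to 122 bp, lost theirs. The count of genes with an inside peak was 9 with the 500 bp window, as Trim28, Suv39h2 and Cbx3 gained one, and 4 with the 5 kb window or wider peaks, against 49.8%, 33.1% and 32.1% of all genes. In alternatives added after seeing the data, 3 of the 10 genes had 2 or more end peaks with the 500 bp window, against 13.6% of all genes. Among the 8 genes of at least 10 kb, 1 had a far-end peak with that window (Cbx5) and 1 with wider peaks (Suv39h2). Of all genes of that length with a listed strand 6.52% and 6.18% did. The median number of outside peaks was 5.5 within 20 kb, 23.5 within 100 kb and 6.5 with wider peaks (2, 10 and 2 over all genes). The median of distal peaks was 3 within 20 kb, 16 within 100 kb, 4 with wider peaks and 7 when distal from every annotated gene end (1, 7, 1 and 3 over all genes). Fewer peaks or another reach change these medians by construction. No paired analysis was possible because the peak list holds no value per sample, and leaving out replicates could not be run for the same reason.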
